A study of Mus musculus with 7 samples.

Results

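Neutrophils recovered from inflamed and resting sites were each matched to the reference population of the Immunological Genome Project (ImmGen) that they most resembled, and the neutrophil matches that held 50 or more cells are described here. There were 4 such classes, GN.Arth.SynF with 2637 cells, GN.Bl with 1299, GN.Thio.PC with 486 and GN.UrAc.PC with 401. Together they held 4823 of the 4856 cells deposited for this library, and 21763 cells were deposited for the series. A class name is the name of a reference population, where Arth.SynF stands for synovial fluid of arthritic mice, Bl for blood, Thio.PC for the peritoneal cavity after thioglycollate and UrAc.PC for the peritoneal cavity after uric acid. No mouse of this library received thioglycollate or uric acid. The next class below the limit of 50 cells was GN.Arth.BM with 28 cells, and the remaining cells were 1 of GN.BM and 4 with names of macrophages or B cells.

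All cells came from C57BL/6J male mice and were sorted as live CD11b+ Ly6G+ cells, and the treated mice were aged 8 weeks. Arthritis was induced in 1 group by intraperitoneal K/BxN serum on day 0 and day 2, and joint lavage and blood were taken at day 7. Other mice received 25 ng of IL-1β into the nose or the peritoneum, and lung or peritoneal lavage was taken after 3 h. Healthy mice gave blood. Each of these 5 conditions was a pool of 3 mice, marked by a hashtag antibody and sequenced in 1 shared library. The condition therefore has no replicate, no test between conditions or classes was possible, and every interval given here is a 95% interval that covers counting error only.

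Neutrophils leave the bone marrow with granules already filled and enter inflamed tissue within hours, where they can release chemokines such as CCL3 and CXCL2 that draw in more cells. Interferons switch on a separate set of genes, among them the Ifit family, whose products act against viral RNA. The S100a8 and S100a9 genes encode calprotectin, the most abundant protein of neutrophil cytosol, and Ly6g encodes the surface protein used for the sort.

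The GN. label was read against fixed markers first. S100a8, S100a9, Csf3r and Itgam were detected in all 12 groups of a class in a condition with 50 or more cells. S100a8 ranged from 13728 CPM (a gene's UMIs over all UMIs of the group, in parts per 1e6) in GN.UrAc.PC of healthy blood to 111263 CPM in GN.Bl of K/BxN blood. Ly6g was low throughout, from 10.2 CPM in GN.UrAc.PC of healthy blood to 204 CPM in GN.Bl of K/BxN blood. Mast cell and basophil markers were at 0 in every class of the joint and of K/BxN blood, and the 7 MHC class II genes summed to at most 108 CPM in these groups. Monocyte and macrophage markers summed to between 256 and 905 CPM over the 4 joint classes, and the highest sum, in GN.UrAc.PC, was mostly Ly6c2 at 629 CPM. The part of these markers in the results was not tested. The inflammation library held 16390439 UMIs, and its cell barcodes matched 2 barcodes in the healthy libraries of the series, 1 of blood and 1 of spleen.

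The share of each class differed between tissue and blood. GN.Arth.SynF made up 79.1% of the 2856 joint cells (77.6 to 80.6%), 72.8% of the 378 lung cells (68.0 to 77.2%) and 34.6% of the 292 peritoneal cells (29.1 to 40.4%). None of the 792 cells of K/BxN blood was GN.Arth.SynF, which allows a share of up to 0.379%, and 1 of 505 cells of healthy blood was. The reference population named for arthritic joint fluid took most cells of the IL-1β lung as well as of the joint, and the blood of the arthritic mice held none.

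GN.Bl was the largest class of both bloods. It made up 83.2% of K/BxN blood (80.4 to 85.7%) and 69.9% of healthy blood (65.7 to 73.9%), against 8.93% of the joint, 3.44% of the lung and 6.51% of the peritoneum. GN.Thio.PC was the largest class of the peritoneum at 55.8% (49.9 to 61.6%). Its share was 19.6% in lung, 8.58% in joint, 0.253% in K/BxN blood and 0.396% in healthy blood. GN.UrAc.PC made up 29.5% of healthy blood (25.6 to 33.7%) and 16.5% of K/BxN blood (14.0 to 19.3%). Its share was 3.36% in the joint, 4.23% in lung and 3.08% in the peritoneum, where it rested on 96, 16 and 9 cells.

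**Figure D1:**
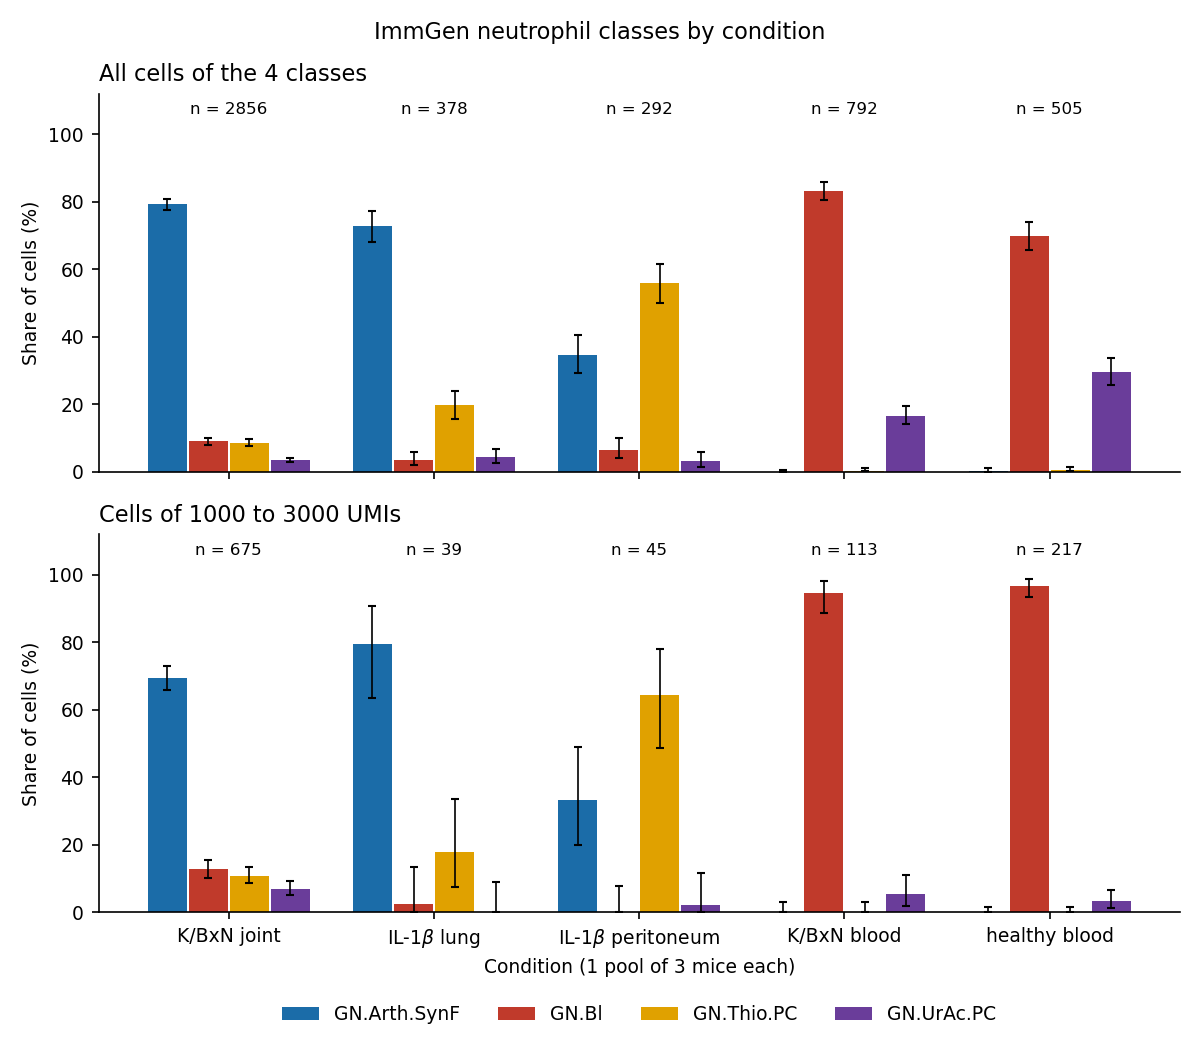
Bars show the percent of cells in each of the 4 ImmGen classes in the 5 conditions, for all cells (top) and for cells of 1000 to 3000 UMIs (bottom), with exact binomial 95% intervals that cover counting error. GN.Arth.SynF was at 79.1% in the joint and 0% in K/BxN blood, and the share of GN.UrAc.PC in healthy blood was 29.5% over all cells and 3.23% between 1000 and 3000 UMIs.

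The classes differed in depth, and the size of that difference depended on the site. In K/BxN blood the median GN.Bl cell had 3723 UMIs and the median GN.UrAc.PC cell had 590. The healthy blood medians were 2854 and 590 UMIs. In the joint the same 2 classes had medians of 3337 and 2761 UMIs. Cells under 1000 UMIs were 125 of the 131 GN.UrAc.PC cells of K/BxN blood and 142 of the 149 of healthy blood, but 16 of the 96 of the joint. GN.UrAc.PC of blood was thus almost wholly a low-depth class, and GN.UrAc.PC of the joint was not.

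Read from the other side, cells under 1000 UMIs went to different classes in different sites. In blood they were called GN.UrAc.PC in 125 of 140 cells of arthritic and 142 of 154 cells of healthy mice. In the peritoneum 56 of 61 were called GN.Thio.PC, and in the lung 58 of 94 were. In the joint 61 of 123 were called GN.Thio.PC and 46 were called GN.Arth.SynF. Between 1000 and 3000 UMIs GN.UrAc.PC was 5.31% of K/BxN blood (1.97 to 11.2%), 3.23% of healthy blood (1.31 to 6.53%) and 6.96% of the joint (5.16 to 9.15%), and the intervals overlapped. In the same window GN.Arth.SynF held 69.5% of the joint and 79.5% of the lung, and GN.Thio.PC held 64.4% of the peritoneum, with 39 lung and 45 peritoneal cells left. Among the 186 peritoneal cells of 3000 or more UMIs, GN.Arth.SynF held 45.7% (38.4 to 53.1%) and GN.Thio.PC 41.9% (34.8 to 49.4%).

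**Figure D2:**
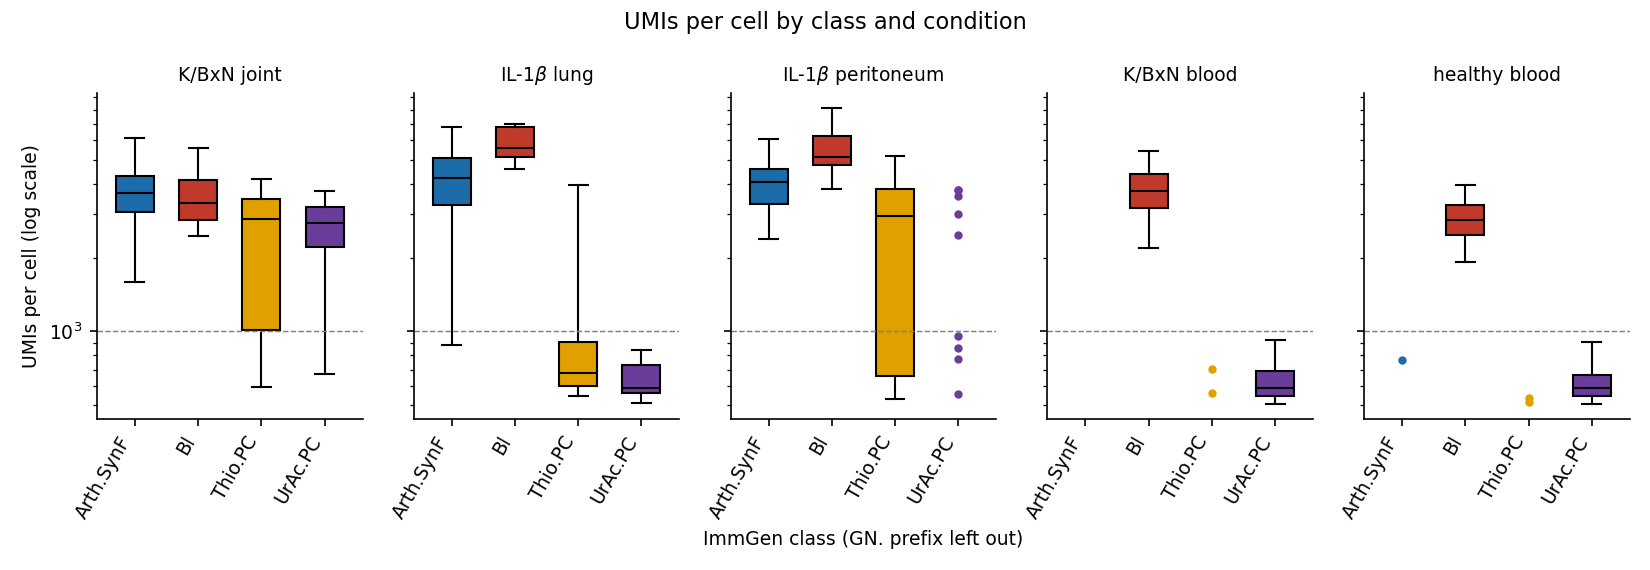
Boxes show UMIs per cell (log scale) by class in each condition, with the median, quartiles and whiskers from the 5th to the 95th percentile, and single points where a group had under 10 cells; the dashed line marks 1000 UMIs. GN.UrAc.PC had a median of 590 UMIs in both bloods and of 2761 UMIs in the joint.

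Within the joint, genes were compared between each class and all other cells of the 4 classes, over the 1324 genes at 100 CPM or more in joint cells. Past 2-fold, GN.Arth.SynF was higher for 62 genes (4.68% of those compared) and lower for 51 (3.85%). GN.Bl was higher for 22 (1.66%) and lower for 140 (10.6%), GN.Thio.PC higher for 68 (5.14%) and lower for 58 (4.38%), and GN.UrAc.PC higher for 98 (7.4%) and lower for 124 (9.37%). The classes had been assigned by the authors from these same counts, so the differences describe the classes and were given no test. The other cells were mostly GN.Arth.SynF in the comparisons of GN.Bl, GN.Thio.PC and GN.UrAc.PC. The splits depended on scaling, since TMM factors shifted the log2 ratios by 0.45 in GN.Arth.SynF and by -0.32, -0.43 and -0.63 in GN.Bl, GN.Thio.PC and GN.UrAc.PC. With these factors the counts higher and lower were 174 and 19, 4 and 240, 28 and 131, and 28 and 312 in the same order. In either direction and without these factors, 8.53%, 12.2%, 9.52% and 16.8% of genes were past 2-fold.

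Chemokine and cytokine genes, Fth1 and interferon-stimulated genes differed between the joint classes. GN.Arth.SynF was high in chemokine and cytokine genes and low in interferon-stimulated genes. GN.Thio.PC was high in interferon-stimulated genes and low in 4 of 10 chemokine and cytokine genes. Its summed level of Fth1 was near that of GN.Arth.SynF, while its median share per cell was lower, at 1.62% against 2.30% of UMIs. GN.Bl was low in chemokine and cytokine genes and Fth1, with a median log2 ratio of 0.36 for interferon-stimulated genes. GN.UrAc.PC combined low chemokine and cytokine genes and Fth1 with high interferon-stimulated genes. With TMM scaling 8 of the 10 chemokine and cytokine genes were higher in GN.Arth.SynF, and 7, 6 and 9 were lower in GN.Bl, GN.Thio.PC and GN.UrAc.PC. Over all 1324 genes this scaling gave 174 higher in GN.Arth.SynF and 240, 131 and 312 lower in the other classes, so it moved all genes the same way.

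The genes that led GN.Arth.SynF were Cxcl3, Nr4a3, Thbs1, Spp1, Rgcc, Cxcl2, Cd14 and Crem. Cxcl3, a CXCR2 ligand, was at 656 CPM in GN.Arth.SynF, 154 in GN.Thio.PC, 80.4 in GN.Bl and 78.2 in GN.UrAc.PC, and was 6.21-fold higher in GN.Arth.SynF than in the other cells (5.37 to 7.21). Cxcl2, another ligand of this receptor, was at 8495 CPM against 3805, 1501 and 1493 CPM in the same order. Spp1 encodes osteopontin and was at 2191 CPM in GN.Arth.SynF, 1195 in GN.Thio.PC, 172 in GN.Bl and 214 in GN.UrAc.PC, and 5 of 245 GN.Thio.PC cells held 35.7% of the Spp1 UMIs of their class. Thbs1 encodes thrombospondin 1 and was 4.20-fold higher (4.01 to 4.41), at 4377 against 1041 CPM in the other cells. Cd14, a co-receptor for lipopolysaccharide, was at 3853 CPM in GN.Arth.SynF and between 617 and 1542 CPM in the other 3 classes. Cxcl3 (chr5:90786103-90789600) and Spp1 (chr5:104435118-104441050) lie on chromosome 5 of GRCm38, and Thbs1 (chr2:118111876-118127133) on chromosome 2.

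Of 18 chemokine and cytokine genes listed, 10 were at 100 CPM or more in the joint. Past 2-fold, GN.Arth.SynF was higher for 5 and lower for none, and GN.Bl higher for 1 and lower for 7. GN.Thio.PC was lower for 4 and GN.UrAc.PC lower for 7. Over all 1324 genes, 4.68% were higher in GN.Arth.SynF, and 1.66% higher and 10.6% lower in GN.Bl. The shares lower in GN.Thio.PC and GN.UrAc.PC were 4.38% and 9.37%. The median log2 ratio of the 10 genes was 1.10, -2.37, -0.71 and -1.56 in that order of classes. The medians over all 1324 genes were -0.12, -0.01, 0.12 and 0.16. Ccl4 was at 3646 CPM in GN.Arth.SynF and 2632 in GN.Thio.PC, against 288 in GN.Bl and 333 in GN.UrAc.PC. In GN.Thio.PC 5 of 245 cells held 41.7% of the Ccl4 UMIs, and in GN.UrAc.PC 5 of 96 held 56.8%, against 4.08% in the top 5 cells of GN.Arth.SynF. Ccl3 gave 1417 and 926 against 153 and 247 CPM. Both encode chemokines that attract leukocytes, and both were higher in GN.Arth.SynF and GN.Thio.PC than in GN.Bl and GN.UrAc.PC. Il1rn, the IL-1 receptor antagonist, was at 1712 and 1446 CPM against 330 and 502 CPM. Il1b itself was spread more evenly, from 3856 CPM in GN.Thio.PC to 7950 CPM in GN.Arth.SynF.

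The immediate early genes followed another order, with sums of 15564 CPM in GN.Arth.SynF, 13020 in GN.Bl, 11276 in GN.UrAc.PC and 9652 in GN.Thio.PC. Of 16 measured, GN.Arth.SynF was higher for 5, while GN.Bl was lower for 3, GN.Thio.PC for 5 and GN.UrAc.PC for 4. Over all 1324 genes the shares were 4.68% higher in GN.Arth.SynF and 10.6%, 4.38% and 9.37% lower in these 3 classes, and 16 genes are few to set against them. Egr1 was at 1094 CPM in GN.Arth.SynF, 554 in GN.Bl, 285 in GN.Thio.PC and 362 in GN.UrAc.PC. Fos, a subunit of AP-1, was at 1060, 1544, 445 and 1037 CPM in the same order, so GN.Bl was above GN.Arth.SynF for this gene. G0s2, an inhibitor of triglyceride lipase, was at 267 CPM in GN.Thio.PC and 160 in GN.UrAc.PC against 1438 in GN.Arth.SynF. Ptgs2, the inducible cyclooxygenase, was at 168 CPM in GN.Thio.PC and between 469 and 702 CPM in the other 3 classes.

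The ferritin and antioxidant genes did not follow 1 pattern. Fth1, the ferritin heavy chain, was at 29600 CPM in GN.Arth.SynF and 28016 in GN.Thio.PC, against 10182 in GN.Bl and 10976 in GN.UrAc.PC. Of the 10 genes of this list at 100 CPM or more, GN.Bl was lower for 5, GN.UrAc.PC lower for 4 and higher for Gpx1, and GN.Thio.PC higher for Ftl1 and Sqstm1. Over all 1324 genes 10.6% were lower in GN.Bl, 9.37% lower and 7.4% higher in GN.UrAc.PC, and 5.14% higher in GN.Thio.PC. Ftl1, the ferritin light chain, was at 20884 CPM in GN.Thio.PC, 10782 in GN.Arth.SynF, 10425 in GN.UrAc.PC and 6651 in GN.Bl. Slc7a11, the cystine transporter subunit, was at 292 CPM in GN.UrAc.PC and 635 in GN.Bl against 1532 in GN.Arth.SynF and 1149 in GN.Thio.PC. The log2 ratios of Ftl1 and Sqstm1 in GN.Thio.PC were 1.01 and 1.17, and that of Gpx1 in GN.UrAc.PC was 1.10. With the TMM shifts of -0.43 and -0.63 added, none of these 3 was past 2-fold.

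GN.Bl of the joint was led by Hist1h1c, Retnlg, Amica1, St8sia4, Serp1, Tmcc1, Emb and Hp. Hist1h1c, a linker histone, was 3.61-fold higher (3.15 to 4.13) and was carried by 40.8% of GN.Bl cells and 17.8% of GN.Arth.SynF cells. Retnlg, a resistin-like gene, was at 8610 CPM in GN.Bl, 3460 in GN.Arth.SynF, 1339 in GN.Thio.PC and 1218 in GN.UrAc.PC. Hp, haptoglobin, was at 2166 CPM in GN.Bl and 1888 in GN.UrAc.PC against 998 and 774 in GN.Arth.SynF and GN.Thio.PC. Mmp8, the neutrophil collagenase, was at 571 CPM in GN.Bl and between 182 and 269 CPM in the other 3 classes. Among genes of secondary granules, Camp was at most 8.23 CPM, Ltf at most 25.6 and Ngp at most 18.5 CPM in the joint classes, while Lcn2 was at 1202 CPM in GN.Bl, 837 in GN.Arth.SynF, 443 in GN.Thio.PC and 399 in GN.UrAc.PC. Ccrl2, a non-signalling chemerin receptor, was 10.7-fold lower in GN.Bl (8.34 to 13.9), at 69.5 CPM, and Cxcr4 was at 1044 CPM in GN.Bl against 2125 in GN.Arth.SynF.

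**Figure D3:**
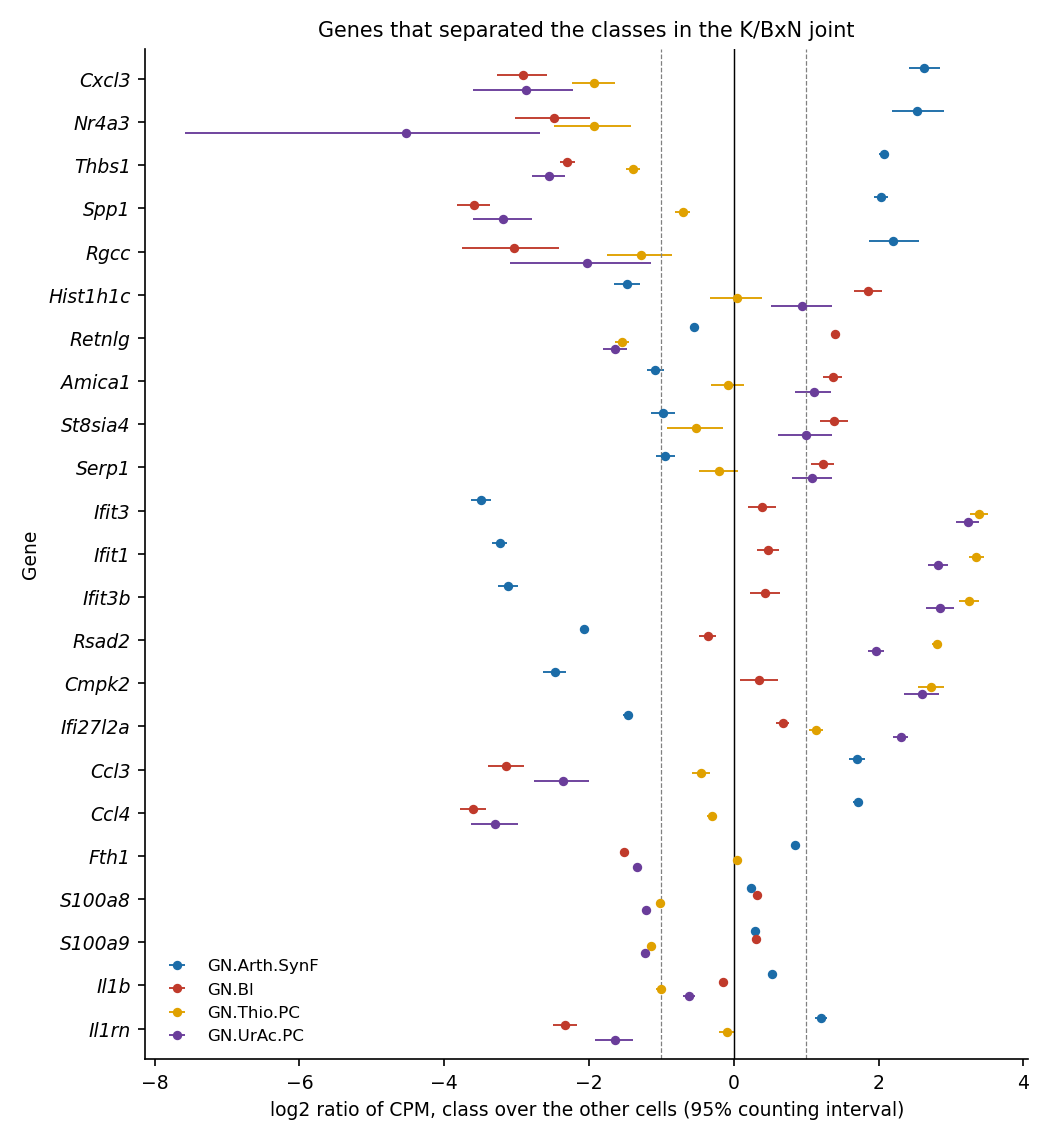
Points give the log2 ratio of CPM in each joint class over all other joint cells for leading genes of each class and 7 genes of the fixed panel, with exact 95% counting intervals; dashed lines mark 2-fold. Ifit3, Ifit1 and Ifit3b were high in GN.Thio.PC and GN.UrAc.PC, while Ccl4 and Spp1 were low in GN.Bl and GN.UrAc.PC.

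Interferon-stimulated genes separated GN.Thio.PC and GN.UrAc.PC from the other joint classes. Of 35 listed interferon-stimulated genes, 34 were in the table and 21 were at 100 CPM or more. GN.UrAc.PC was higher past 2-fold for all 21 of these, GN.Thio.PC for 20, and GN.Arth.SynF was lower for 20. Over all 1324 genes the shares were 7.4%, 5.14% and 3.85% in the same order. With TMM scaling the counts were 18, 18 and 13, against 28, 28 and 19 over all 1324 genes. The summed level of the list was 32356 CPM in GN.UrAc.PC, 30917 in GN.Thio.PC, 10010 in GN.Bl and 6153 in GN.Arth.SynF.

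Ifit3 was at 1658 CPM in GN.UrAc.PC, 1406 in GN.Thio.PC, 270 in GN.Bl and 76.0 in GN.Arth.SynF. Ifit1 was at 2106, 2226, 457 and 138 CPM in that order, and Rsad2, whose product viperin blocks viral replication, at 3168, 4448, 691 and 557 CPM. Cmpk2, the neighbour of Rsad2 in the genome, was at 671, 610, 154 and 68.9 CPM. All 4 of these genes were higher in both classes than in GN.Bl and GN.Arth.SynF. Some genes favoured GN.UrAc.PC, with Ifi27l2a at 3328 against 1507 CPM in GN.Thio.PC and Ifitm3 at 4488 against 3426 CPM. Irf7, a transcription factor induced by interferon, was at 745 and 578 CPM in these classes against 105 in GN.Arth.SynF.

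A UMI of Ifit3 was found in 36.5% of GN.UrAc.PC cells (26.9 to 46.9%) and 30.6% of GN.Thio.PC cells (24.9 to 36.8%), against 19.2% of GN.Bl and 7.96% of GN.Arth.SynF. A cell without a UMI may still express the gene at this depth, and the part of free RNA in these shares was not tested. The 5 cells with most Ifit3 UMIs held 43.7% of these UMIs in GN.UrAc.PC and 24.6% in GN.Thio.PC. The median share of UMIs in the list was 1.68% per cell in GN.UrAc.PC, 0.994% in GN.Thio.PC, 0.590% in GN.Bl and 0.291% in GN.Arth.SynF.

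Cells high in these genes were also not confined to the interferon-high classes. Of the 2856 joint cells, 627 had 1% or more of their UMIs in the list, and 230 cells lay near this limit, between 0.8 and 1.2%. They were 67.7% of GN.UrAc.PC, 49.8% of GN.Thio.PC, 35.3% of GN.Bl and 15.5% of GN.Arth.SynF. By number, 350 of the 627 (55.8%) were GN.Arth.SynF, 122 GN.Thio.PC, 90 GN.Bl and 65 GN.UrAc.PC. Among the 325 cells at 2% or more, 44.6% were GN.Arth.SynF and 30.2% were GN.Thio.PC. The same limit was passed by 10.7% of K/BxN blood cells, 14.0% of lung, 21.9% of peritoneal and 8.32% of healthy blood cells.

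Depth moved with GN.Thio.PC in the joint, where 61 of 245 cells had under 1000 UMIs. The interferon-stimulated genes summed to 32056 CPM in its 184 deeper cells and 16270 CPM in the 61 shallower ones. Malat1, a nuclear long noncoding RNA, stood at 26617 and 83125 CPM in these cells. In GN.UrAc.PC the sums were 33087 CPM in 80 deeper cells and 17803 CPM in 16 shallower ones. Among joint cells of 1000 or more UMIs the list was past 2-fold higher for 20 of 21 genes in GN.Thio.PC and 21 of 21 in GN.UrAc.PC. Over all 1323 genes compared in these cells, 67 and 97 were higher.

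**Figure D4:**
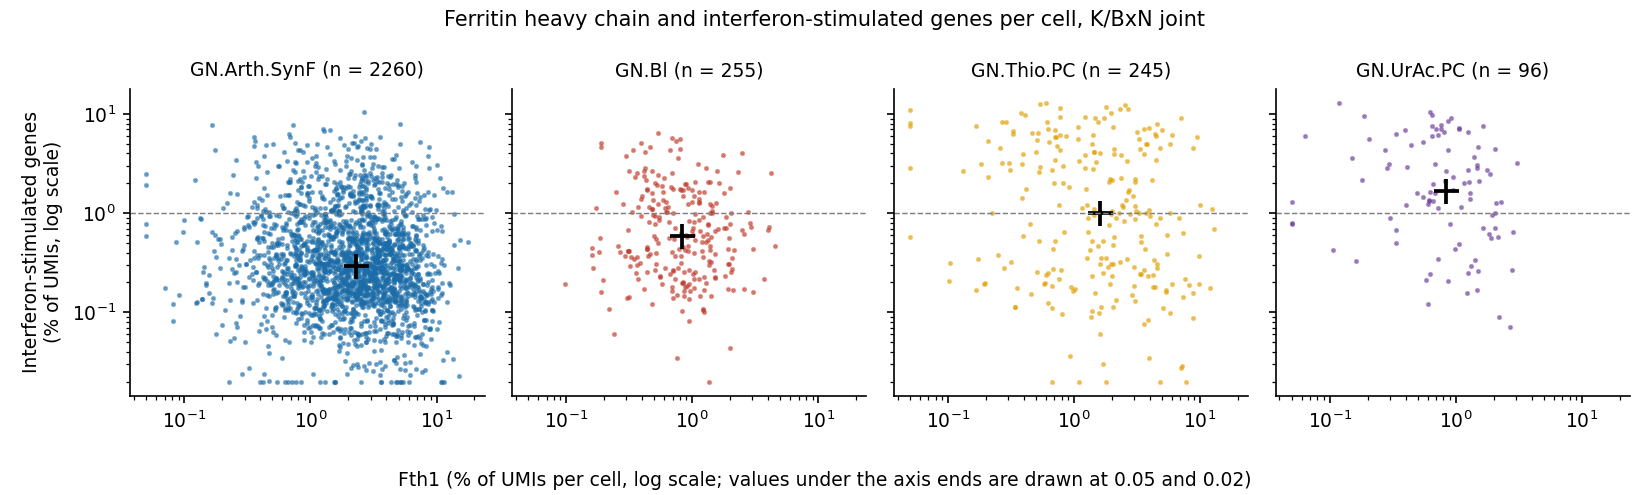
Each point is a joint cell placed by the percent of its UMIs in Fth1 (x, log scale) and in the interferon-stimulated gene list (y, log scale), with 1 panel per class; crosses are medians and the dashed line marks 1% of UMIs. Median Fth1 shares were 2.30% in GN.Arth.SynF, 1.62% in GN.Thio.PC, 0.825% in GN.Bl and 0.831% in GN.UrAc.PC, and cells above 1% in the interferon list occurred in all 4 panels.

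Because the leading genes of these 2 classes moved together, their promoters were read for the core of the interferon-stimulated response element, GAAA followed by 2 bases of any kind and GAAA again, or the same with TTTC for the other strand. The windows run from 250 bases before to 50 after the RefSeq gene start (GRCm38.p6). The element was in 1131 of all 32851 windows (3.44%) and in 11 of 20 windows of the interferon-stimulated genes at 100 CPM or more (55%). It was in 22 of 69 windows of genes higher in GN.Thio.PC, 24 of 102 in GN.UrAc.PC and 3 of 73 in GN.Arth.SynF. The stretches upstream of 4 leading genes are shown because Ifit3, Ifit3b and Ifit1 led both classes and Rsad2 led GN.Thio.PC, with the element in capitals.
Ifit3, chr19:34583397-34583426, + strand: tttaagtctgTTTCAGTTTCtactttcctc
Ifit3b, chr19:34607793-34607822, + strand: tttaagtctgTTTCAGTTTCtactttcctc
Ifit1, chr19:34640794-34640823, + strand: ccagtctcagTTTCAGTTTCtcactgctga
Rsad2, chr12:26456553-26456582, - strand: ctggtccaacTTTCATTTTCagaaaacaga
The stretches of Ifit3 and Ifit3b were identical. These genes are close copies on chromosome 19, so reads may have been divided between them and their separate values are uncertain. The windows of Cmpk2, Oasl1 and Irf7 held no match to these letters, and a match is a description of the sequence only.

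In K/BxN blood only GN.Bl and GN.UrAc.PC held 50 or more cells, and the genes that separated them were of another kind. Over 1265 genes at 100 CPM or more, GN.UrAc.PC was higher past 2-fold for 321 (25.4%) and lower for 270 (21.3%), or 46.7% in either direction, and GN.Bl, against the other cells, higher for 269 (21.3%) and lower for 319 (25.2%), or 46.5%. In healthy blood GN.UrAc.PC was higher for 349 of 1523 genes (22.9%) and lower for 364 (23.9%), and GN.Bl higher for 361 (23.7%) and lower for 349 (22.9%). For GN.UrAc.PC of K/BxN blood, TMM factors shifted the log2 ratios by -1.01 and gave 51 genes higher and 565 lower, and for GN.Bl they shifted them by 1.01 and gave 570 and 52. The leading higher genes were 6 mitochondrial genes, Malat1 and Clk1, a kinase of splicing factors. Malat1 was at 106361 CPM in GN.UrAc.PC and 20152 CPM in the other cells, 5.28-fold higher (5.16 to 5.39). mt-Co1, a subunit of cytochrome oxidase, was at 8041 against 1318 CPM.

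The leading lower genes were S100a8, S100a9, Cox6c, Txn1, Rps27a, Rpl30, Retnlg and Rpl37. S100a8 was at 15758 CPM against 111216 CPM, and S100a9 at 21781 against 139008 CPM. Cox6c, a nuclear-encoded subunit of cytochrome oxidase, had no UMI among the 89666 of GN.UrAc.PC, against 211 CPM in the other cells, and was at least 6.31-fold lower against a floor of 3 counts over the group. Of 66 ribosomal protein genes 63 were lower, with a median log2 ratio of -1.81, and all 6 mitochondrial genes at 100 CPM or more were higher, with a median of 2.72, against 0.19 over all genes. Gapdh, of glycolysis, was at 212 against 1136 CPM. Csf3r, the receptor for G-CSF, was at 7941 CPM in GN.UrAc.PC and 3034 in GN.Bl, and Padi4, the enzyme that citrullinates histones, at 1071 against 210 CPM in the other cells.

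Interferon-stimulated genes did not lead the class in blood. Of 10 list members at 100 CPM or more, GN.UrAc.PC was higher for 5 and lower for 1, where 25.4% of all genes were higher and 21.3% lower. It was higher for 3 in filtered cells, where 318 of all 1267 genes were higher. With TMM scaling it was higher for 1 and lower for 2, against 51 and 565 of all 1265 genes. Slfn4, a Schlafen family gene, was at 2074 CPM against 393 CPM in the other cells. Ifitm3 was the lower member, at 346 against 1367 CPM. Ifi27l2a, which is not in the list, was at 123 against 753 CPM, while in the joint it was higher in GN.UrAc.PC. Ifit1 was at 11.2 CPM in GN.UrAc.PC of K/BxN blood and 2106 CPM in GN.UrAc.PC of the joint. The blood value lies below the floor of 3 counts in this group, 33.5 CPM, so the size of this difference is uncertain.

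GN.UrAc.PC was compared gene by gene between sites. Across the 1031 genes at 100 CPM or more in both the joint and K/BxN blood, the log2 ratios of GN.UrAc.PC to the other cells had a Pearson correlation of -0.03 and a Spearman correlation of -0.02. Between K/BxN blood and healthy blood, which share no mice, the values were 0.89 and 0.91 over 1232 genes. Of the 75 genes higher past 2-fold in the joint class, 23 were also higher in K/BxN blood and 9 were lower, where 24.6% of the 1031 genes were higher and 22.1% lower in blood. These correlations are across genes of 1 library. GN.UrAc.PC had a median of 590 UMIs in both bloods and 2761 UMIs in the joint, so the 2 bloods were alike in depth and the joint was not. The part of depth in these correlations was not tested.

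**Figure D5:**
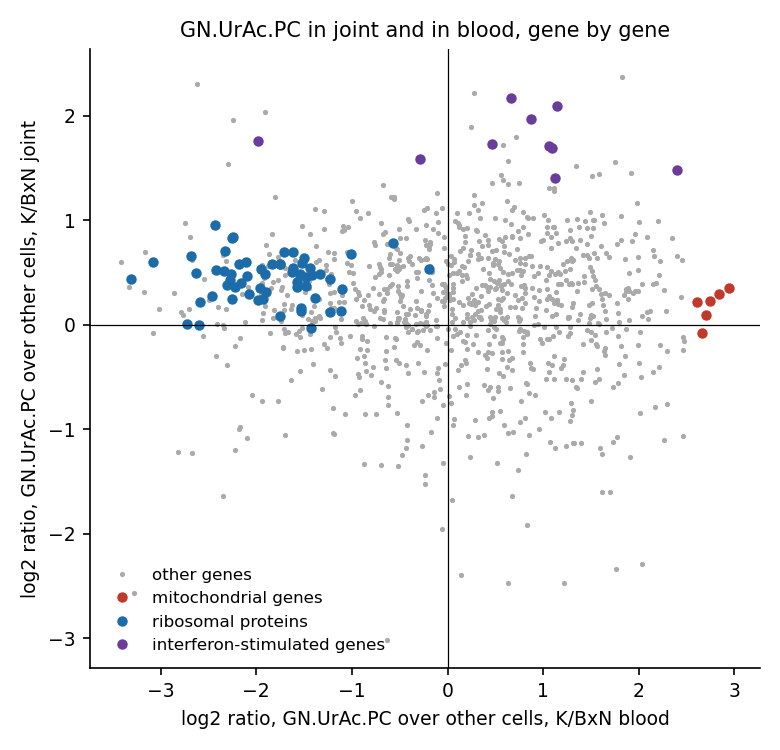
Each point is 1 of 1031 genes, placed by the log2 ratio of GN.UrAc.PC over the other cells in K/BxN blood (x) and in the K/BxN joint (y). Mitochondrial genes lie at the right and ribosomal protein genes at the left, with median log2 ratios of 0.22 and 0.48 on the joint axis, while the interferon-stimulated genes shown all lie above 0 on the joint axis.

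High Malat1 and mitochondrial genes and low ribosomal protein genes were also seen in cells under 1000 UMIs of other classes. Over the 10 groups with 10 or more such cells, ribosomal protein genes summed to between 4882 and 11631 CPM, against 20199 to 53600 CPM in groups of deeper cells. In shallow cells Malat1 was at 114992 CPM in GN.UrAc.PC of K/BxN blood, 48250 CPM in GN.Bl of K/BxN blood, 97419 CPM in GN.Thio.PC of the peritoneum, 74848 CPM in GN.Thio.PC of the lung and 48388 CPM in GN.Arth.SynF of the joint. In cells of 1000 or more UMIs it was between 10184 and 29730 CPM in all groups with 10 or more cells. S100a8 was at 36327 CPM or less in every group under 1000 UMIs, and from 33662 to 143772 CPM in those above, so these ranges overlapped. The sum of mitochondrial genes was from 15481 to 24823 CPM below and from 2720 to 6200 CPM above 1000 UMIs. Among shallow cells Cxcl2 was at 14697 CPM in GN.Thio.PC of the lung, 1397 CPM in GN.UrAc.PC of the lung and 528 CPM in GN.UrAc.PC of K/BxN blood. The part of depth in the class calls and of free RNA in these levels was not tested.

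GN.Thio.PC also differed between sites, in depth as well as in genes. Cells under 1000 UMIs were 58 of its 74 in the lung, 56 of 163 in the peritoneum and 61 of 245 in the joint. In the lung its median was 675.5 UMIs, against 4213 in GN.Arth.SynF. The part of depth in the values below was not tested. The log2 ratios of GN.Thio.PC to the other cells had a Pearson correlation of 0.40 between joint and peritoneum (946 genes). It was 0.31 between joint and lung (948 genes) and 0.49 between lung and peritoneum (957 genes). Past 2-fold GN.Thio.PC was higher for 184 of 1091 genes in the lung (16.9%) and lower for 77 (7.06%). In the peritoneum it was higher for 51 of 1115 (4.57%) and lower for 11 (0.987%). GN.Arth.SynF was higher for 57 genes in the lung (5.22%) and lower for 88 (8.07%), and higher for 3 in the peritoneum (0.269%) and lower for 24 (2.15%). Ifit3, at 1406 CPM in the joint class, was at 56.0 CPM in the lung and 31.6 CPM in the peritoneum. The gene was low in all cells of these sites, at 10.7 CPM in lung and 19.1 CPM in peritoneum against 212 CPM in the joint. Cells with 1% or more of UMIs in the interferon list were 32.4% of GN.Thio.PC and 9.09% of GN.Arth.SynF in the lung, and 30.7% and 7.92% in the peritoneum. Fth1 was at 46710 CPM in GN.Thio.PC and 53373 CPM in GN.Arth.SynF of the peritoneum, and Il1rn at 9894 and 8811 CPM. By root mean square log2 difference these 2 peritoneal classes were the closest pair of the 12 groups, at 0.415 over 269 genes at 500 CPM or more when each group was thinned to 89242 UMIs. By Spearman correlation over these genes GN.UrAc.PC of the 2 bloods was closer, at 0.9570 against 0.9498.

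Saa3 and Cxcl10 are named here after their values were seen. Saa3, an acute phase serum amyloid gene, was at 374 CPM in GN.Thio.PC of the peritoneum and 3.77 CPM in the other cells, and its 154 UMIs lay in 9 of 163 cells. In GN.Thio.PC of the lung all 199 Saa3 UMIs lay in 2 of 74 cells, so the summed level of 2230 CPM describes these cells. Cxcl10, a chemokine induced by interferon, was at 923 CPM in GN.Thio.PC and 344 CPM in GN.Arth.SynF of the peritoneum, in 38 of 163 and 14 of 101 cells. In the joint it was at 1022 CPM in GN.Thio.PC and 19.2 CPM in GN.Arth.SynF, in 32 of 245 and 57 of 2260 cells.

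GN.Arth.SynF was found in 3 inflamed sites with different gene levels. Spp1 was at 2191 CPM in the joint, 108 in the lung and 95.9 in the peritoneum. Cxcr4, the receptor that retains neutrophils in the marrow, was at 2125, 579 and 322 CPM in the same order. Cxcl3 was at 10222 CPM in the lung, 2213 in the peritoneum and 656 in the joint, and Lcn2, a siderophore-binding protein, at 3988, 9462 and 837 CPM. The root mean square log2 difference was 0.669 between lung and peritoneum and 0.966 and 1.01 between the joint and these sites. It was 0.696 between GN.Arth.SynF and GN.Thio.PC of the joint. The same label at another site was thus farther from joint GN.Arth.SynF than another label at the same site. Peritoneal GN.Arth.SynF had this order too, at 0.669 to the lung and 0.415 to GN.Thio.PC of the peritoneum. Lung GN.Arth.SynF had the other order, at 0.669 to the peritoneum and 0.771 to GN.Thio.PC of the lung. The agent, the route and the time after treatment also differ between these conditions and cannot be told apart from the site.

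GN.Bl of the joint and of K/BxN blood, both from arthritic mice, gave a difference of 0.747, and GN.Bl of K/BxN and healthy blood gave 0.461. GN.Bl of the joint had 10182 CPM of Fth1 against 5608 CPM in K/BxN blood, 1501 against 158 CPM of Cxcl2 and 798 against 138 CPM of Cd14. It lay between GN.Bl of blood and GN.Arth.SynF of the joint for these 3 genes. Retnlg also lay between them but in falling order, at 15312 CPM in blood, 8610 CPM in joint GN.Bl and 3460 CPM in GN.Arth.SynF.

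The 28 cells of GN.Arth.BM lay just outside the limit of 50, and 22 of them were from K/BxN blood. These 22 had a median of 5482 UMIs. Retnlg was at 37222 CPM in them against 15312 CPM in GN.Bl of K/BxN blood, Lcn2 at 5404 against 2106 CPM, Mmp8 at 2245 against 821 CPM and Ngp at 495 against 46.3 CPM. Il1b went the other way, at 1946 against 3822 CPM.

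The genes that separated the classes were also read in libraries that had no part in their assignment, those of marrow, blood and spleen from healthy animals, sequenced in 2 runs. Cells with 2% or more of UMIs in S100a8 and S100a9 and at most 1% in markers of other cells were summed, and bone marrow was compared with blood by edgeR's quasi-likelihood test with run as a block. Of 7332 genes, 538 were higher in bone marrow (7.34%) and 688 higher in blood (9.38%) at an adjusted p under 0.05. Gated cells had medians of 804 and 932.5 UMIs in the 2 blood libraries and 2698 and 2133.5 UMIs in those of marrow. Of the 4653 blood cells of run 2, 1104 passed the gate (23.7%). Tissue and depth thus went together, and their parts in these calls cannot be told apart. Among the genes at 100 CPM or more in the joint that were tested, 1.52% were higher in marrow and 28.8% in blood. Of the 98 genes higher in GN.UrAc.PC of the joint, 53 were higher in healthy blood and 3 in marrow. Of 67 tested genes higher in GN.Thio.PC these were 36 and 2, and of 57 higher in GN.Arth.SynF they were 16 and 3. In K/BxN blood 29.1% of the tested genes were higher in healthy blood and 1.27% in marrow, against 124 and 1 of the 319 higher in GN.UrAc.PC.

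Ifit3 was at 93.7 and 32.9 CPM in the 2 blood libraries and 16.8 and 15.0 CPM in the marrow libraries. Its log2 ratio of marrow to blood was -1.86 ± 0.36 (SE) with an edgeR adjusted p of 0.0194. Retnlg was at 15421 and 17973 CPM in blood and 24031 and 38113 CPM in marrow, with a log2 ratio of 0.89 ± 0.34 (SE) and an edgeR adjusted p of 0.114. Hist1h1c, which led GN.Bl of the joint, had an edgeR log2 ratio of -1.82 ± 0.33 (SE) and an adjusted p of 0.0166, at 320 and 223 CPM in blood against 81.6 and 72.1 CPM in marrow. These calls rested on 2 libraries a tissue and on the gate, since 0 genes were called with all deposited cells (edgeR, with 1218 at an unadjusted p under 0.05) and 7 without the blood library of run 1.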

How the data were processed

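Single-cell RNA was measured by 10X 3' capture of sorted neutrophils in 6 healthy libraries (bone marrow, blood and spleen in 2 runs) and 1 inflammation library. The authors aligned reads to mm10 (GRCm38) with Cell Ranger and deposited raw UMI counts per gene and cell, singlets only after hashtag assignment, with a table of the condition, the ImmGen class and the cell cycle phase of each cell; its phase scores are fractions that the authors computed and were not used. The authors' classifier compared raw counts with 249 reference populations. The members and lists were chosen with earlier results of these data known.

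Counts were summed by class and condition and expressed as CPM. Shares have exact Clopper-Pearson intervals, levels exact Poisson intervals and ratios exact conditional binomial intervals, all at 95%, and a count of 0 was read against 3 counts. These cover counting error only, because mice were pooled and cells are not replicates. Genes named were, for each class of joint and K/BxN blood, the 8 highest and 8 lowest by the bound of the ratio nearest to 1, list members past 2-fold (at most 4 a list) and a fixed panel. Doublets were not called again, since the deposited cells were hashtag singlets. Depth was 500 to 11872 UMIs per cell. No column of per-cell values was left without a sample.

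Healthy bone marrow and blood were compared with edgeR 4.0.16 (TMM factors, filterByExpr, quasi-likelihood test, Benjamini-Hochberg adjustment) in R 4.3.3, over 1104 to 3412 gated cells a library. Within each run, the 3 tissues were taken from 1 set of animals, per the study's methods. Deviations of run 1 from the tissue mean had Pearson correlations of 0.62, 0.52 and 0.67 between tissues, so run was a block. Without it 48 genes were called. On simulated data for this comparison, over 7041 genes, 7% of 2-fold and 52% of 4-fold changes were recovered. The simulated dispersion was set at 0.1 and not estimated from these libraries, so these rates need not hold for the real comparison. Promoters were from RefSeq and gene positions from GENCODE vM21. Alternatives tried were a filter on cells, depth windows, thinning, TMM scaling, other floors and folds, another reference class, DESeq2 1.42.0 and leaving out libraries. The authors' classes were taken as deposited. A result for 1 gene of the interferon list is not reported here.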

Additional observations from a re-analysis of the deposited data

How the results depend on the processing

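Among log2 ratios of the genes named in joint and blood, 68 of 80 left their counting interval with TMM scaling, 23 of 64 with thinning, 22 of 80 with a mean over cells, 19 of 64 with the largest class as reference, 3 of 64 in cells of 1000 or more UMIs and 1 of 80 in filtered cells. The CPM floors and the fold cannot change a ratio. These genes were chosen for large ratios, so that the directions held says little. Of the shares, those in cells with at most 5% mitochondrial UMIs and without the extremes of genes per cell, and those over all deposited cells, stayed within their intervals. In the window of 1000 to 3000 UMIs the joint shares of GN.Arth.SynF, GN.Bl, GN.Thio.PC and GN.UrAc.PC were 69.5%, 12.7%, 10.8% and 6.96%. GN.Bl, GN.Thio.PC and GN.UrAc.PC were at 94.7%, 0% and 5.31% of K/BxN blood. In healthy blood GN.Arth.SynF and GN.Thio.PC were at 0%, GN.Bl at 96.8% and GN.UrAc.PC at 3.23%. GN.Arth.SynF was at 79.5% and GN.UrAc.PC at 0% of lung, and GN.Thio.PC at 64.4% and GN.Bl at 0% of peritoneum.

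Counts of genes past 2-fold in either direction were 113, 162, 126 and 222 for GN.Arth.SynF, GN.Bl, GN.Thio.PC and GN.UrAc.PC of the joint. They were 193 for GN.Arth.SynF, 244 for GN.Bl and 340 for GN.UrAc.PC with TMM scaling. A floor of 50 CPM gave 183, 250, 210 and 392, a floor of 200 CPM gave 62, 94, 68 and 124, and a fold of 1.5 gave 338, 426, 324 and 523, since these change how many genes are compared or called. In K/BxN blood 591 genes for GN.UrAc.PC and 588 for GN.Bl became 1049 and 1042 with the 50 CPM floor and 316 for both with the 200 CPM floor. Thinning to 1000 UMIs, and the restriction to cells of 1000 or more UMIs that was added after the data were seen, gave no value in K/BxN blood, where too few GN.UrAc.PC cells remained. GN.Arth.SynF of the joint and GN.Bl of blood are themselves the largest class and had no value with the largest class as reference.

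The count of 1226 genes between healthy bone marrow and blood became 48 with no replicate block, 784 with DESeq2 and 0 with all deposited cells (edgeR). Leaving out 1 library gave from 7 to 1198 genes. It fell to 7 without blood run 1, to 121 without blood run 2 and to 744 without bone marrow run 2, on 1 residual degree of freedom. The cause was not tested.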

Other observations

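The deposited cell cycle phase was not used above. Phases other than G1 were given to 12.5% of GN.UrAc.PC cells (50 of 401, 9.40 to 16.1%), 3.29% of GN.Thio.PC, 2.08% of GN.Bl and 1.02% of GN.Arth.SynF. Within GN.UrAc.PC they were 19.5% in healthy blood, 12.2% in K/BxN blood and 3.12% in the joint, where the median depths were 590, 590 and 2761 UMIs. The cell cycle gene Hmgb2 was at 468 CPM in GN.UrAc.PC of K/BxN blood and 1748 CPM in its other cells. The part of depth and of free RNA in these phase calls was not tested, and no cycling is read from them.

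The receptor Ccr1 was at 1929 CPM in GN.UrAc.PC of K/BxN blood and 692 CPM in its other cells. In the joint it was at 1599 CPM in GN.Arth.SynF, 1187 in GN.Bl, 1246 in GN.Thio.PC and 1555 in GN.UrAc.PC. BC100530 was at 4.80 CPM in GN.Thio.PC and 32.9 CPM in GN.UrAc.PC of the joint against 208 and 206 CPM in GN.Arth.SynF and GN.Bl, and 6.64% of GN.Arth.SynF cells held a UMI of it. In GN.Bl 18 of 255 cells did, and 5 of them held 76.3% of its UMIs.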
